A study of Rattus norvegicus with 42 samples.

Results

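The genes described here build and control the mitotic spindle. They were taken from the platform's probe table by symbol, as mitotic cyclins with Cdk1 and the Cdc25 phosphatases, mitotic kinases, spindle checkpoint and anaphase-promoting complex genes, centromere and kinetochore genes, mitotic kinesins and cytokinesis genes, condensin subunits, and the proliferation markers Top2a and Mki67. The symbols chose 68 of 14218 genes, each read from whichever of its probe sets had the highest mean. The rule reads symbols alone, but it was set with earlier results of these data known. Of these, 66 were measured, meaning that the highest mean over the study's groups lay above the 40th percentile of all values (log2 5.79, an intensity of 55.2), and all 66 had a mean over all arrays above it too. Cenpa, the centromeric histone H3 variant, and Cdca5, the cohesin protector sororin, lay below it. They are described by their levels alone.

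RNA came from metanephric mesenchyme, the kidney's nephron-forming tissue, microdissected from rat embryos at embryonic day 13.5 and freed of the ureteric bud with trypsin and DNase. Each of 21 groups had 2 arrays, labelled as biological replicates. The cultured groups were explants with LIF, with NGAL or with the ANX fraction on days 1, 2, 3, 4, 5 and 7, and explants without inducer on days 1 and 2; the last group was tissue taken directly after dissection. LIF is a cytokine of the interleukin 6 family, NGAL is the iron-siderophore carrier lipocalin 2, and the sources used here do not say what the ANX fraction holds. All cultures, those without inducer included, grew on collagen-coated transwell filters in medium with insulin, transferrin, selenium, dexamethasone, prostaglandin, T3, a recombinant FGF and a recombinant TGF, so that the uninduced explants also received growth factors. Uninduced explants older than 2 days were not analysed here. No label says whether embryos were pooled, and p-values measure the spread between these arrays.

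Entry into mitosis is driven by cyclin B bound to Cdk1, which Cdc25 phosphatases switch on, with Aurora and Polo-like kinases shaping the spindle. The spindle checkpoint holds the anaphase-promoting complex and its activator Cdc20 inactive until every kinetochore is attached, after which securin and cyclin B are destroyed and the chromatids part. Transcripts of most of these genes peak late in the cell cycle, so that their level in a tissue is widely used as a readout of how many cells cycle. In the developing kidney the mesenchyme around the ureteric bud tips contains dividing progenitors, and many of their descendants leave the cell cycle as they form nephron epithelia.

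The upstream promoter stretches of 6 members are shown because most late cell cycle genes share short sequence elements there, which lets a reader see how the members resemble each other outside their expression. RefSeq's promoter table (rat assembly GRCr8) gives 1 start a gene, and each stretch holds the 250 bases before that start, written 5′ to 3′ on the gene's strand. Only members whose stretch lies outside the gene's annotated extent were chosen, since in others a longer transcript begins further upstream. Capitals mark the core of the cell cycle homology region, the element bound by the DREAM and MuvB complexes (TTTGAA or TTCGAA), and the CCAAT box bound by NF-Y, each on either strand, so that TTCAAA and ATTGG are their reverse forms. Ccnb1 is cyclin B1, Plk1 and Bub1 are mitotic kinases, Cdc20 activates the anaphase-promoting complex, Top2a untangles sister DNA, and Cdca7 is the chromatin gene with the largest difference on day 2 without inducer, described below.
Ccnb1 (chr2:33655226-33655475, minus strand): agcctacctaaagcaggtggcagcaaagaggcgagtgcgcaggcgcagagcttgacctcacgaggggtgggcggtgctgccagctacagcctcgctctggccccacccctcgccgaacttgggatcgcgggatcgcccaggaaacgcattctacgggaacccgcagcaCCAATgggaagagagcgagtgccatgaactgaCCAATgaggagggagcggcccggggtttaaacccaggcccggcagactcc
Plk1 (chr1:186147408-186147657, plus strand): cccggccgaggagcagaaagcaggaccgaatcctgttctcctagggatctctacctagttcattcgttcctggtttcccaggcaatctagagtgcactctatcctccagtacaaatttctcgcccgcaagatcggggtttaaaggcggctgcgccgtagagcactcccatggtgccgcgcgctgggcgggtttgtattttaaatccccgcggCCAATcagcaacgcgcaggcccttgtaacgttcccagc
Bub1 (chr3:135504922-135505171, minus strand): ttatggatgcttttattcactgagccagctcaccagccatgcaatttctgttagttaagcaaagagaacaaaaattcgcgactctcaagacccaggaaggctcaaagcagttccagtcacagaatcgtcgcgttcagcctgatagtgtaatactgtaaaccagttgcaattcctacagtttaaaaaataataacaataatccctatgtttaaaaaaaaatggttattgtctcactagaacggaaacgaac
Cdc20 (chr5:137255800-137256049, minus strand): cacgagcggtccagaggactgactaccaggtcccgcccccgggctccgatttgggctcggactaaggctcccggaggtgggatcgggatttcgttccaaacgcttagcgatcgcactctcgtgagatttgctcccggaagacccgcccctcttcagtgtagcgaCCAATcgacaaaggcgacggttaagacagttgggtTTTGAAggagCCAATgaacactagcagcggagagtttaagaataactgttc
Top2a (chr10:84473094-84473343, minus strand): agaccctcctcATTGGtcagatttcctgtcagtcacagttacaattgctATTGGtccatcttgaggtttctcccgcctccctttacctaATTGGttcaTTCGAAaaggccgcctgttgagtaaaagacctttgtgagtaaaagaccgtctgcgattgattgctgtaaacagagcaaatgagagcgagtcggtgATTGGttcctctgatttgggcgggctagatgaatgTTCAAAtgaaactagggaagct
Cdca7 (chr3:77730065-77730314, plus strand): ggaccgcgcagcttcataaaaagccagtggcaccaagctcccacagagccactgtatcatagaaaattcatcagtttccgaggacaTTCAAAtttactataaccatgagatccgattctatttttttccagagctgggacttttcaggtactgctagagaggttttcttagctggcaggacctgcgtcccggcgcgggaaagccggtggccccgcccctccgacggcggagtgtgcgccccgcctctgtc
Of the 66 measured members, 59 had a window of 250 bases before to 50 after the start in the RefSeq table. For 21 of these the upstream stretch lay outside the gene's annotated extent, for 25 it lay partly and for 13 wholly inside, so that the counts below describe the table's windows, not promoters checked by another source. The Cdc20, Top2a and Cdca7 stretches hold the TTTGAA or TTCGAA core, whereas those of Ccnb1, Plk1 and Bub1 show none before the start, which says only that these letters are not in this stretch. Over the full windows, TTTGAA or TTCGAA was present in 37 of 59 members (62.7%), against 12.9% of the 9471 measured genes with a window and 19.5% of all 27457 windows. At least 2 CCAAT boxes were present in 25 of 59 members (42.4%), against 13.3% of measured genes and 11.5% of all windows. Both kinds of element occurred together in 26 members (44.1%), against 5.45% of measured genes. Members' windows had a median GC content of 58%, against 61% in measured genes and 52.3% in all windows. These matches are descriptions of letters, not of binding.

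Array medians ran from 83.3 to 88.4 on the intensity scale, and no array was left out. Control probe sets differed between groups. The dap spike-in control gave a 3'/5' ratio between 0.77 and 2.35 on the log2 scale, and the 5S rRNA probe set lay between 6.30 and 10.32. The 5S value was 10.10 and 10.32 on day 2 without inducer, against 6.32 and 6.62 in fresh tissue. The dap ratio was 1.965 and 2.04 on day 2 without inducer, against 1.06 and 1.08 in fresh tissue. For beta-actin the log2 3'/5' ratio was 1.57 and 1.545 on day 2 without inducer, against 0.91 and 0.76 in fresh tissue. Of the markers of metanephric mesenchyme, 7 were measured in the series, all above the signal threshold in fresh tissue. There Wt1 had log2 levels of 11.44 and 11.33, while Gdnf averaged 6.78 and Hoxd11, at 5.92, lay close to the threshold of 5.79. Other markers of the list had no probe set used here. In whole tissue, fewer cells of a kind and less RNA per cell cannot be told apart. Levels are compared between arrays for 1 probe set at a time, never between genes.

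Most members moved together over the 42 arrays. For 41 of 66, the correlation with the mean of the other members was above 0.8 (median 0.84), as a description over arrays of which 2 at a time share a group. This correlation is not given here for other genes, so it is not shown to be particular to the members. Cdk1 had r = 0.95 and Ccnb1 had r = 0.95. The correlation was below 0.5 for 9 members, and it was below 0 for Cenpb (r = -0.40), which binds a repeat in centromeric DNA, and Cdc25b (r = -0.12), a phosphatase that acts on Cdk1 at mitotic entry. Mki67 had r = 0.42 and a pooled replicate SD of 0.36 on the log2 scale, against 0.16 for Cdk1. The highest group mean lay in fresh tissue for 32 members and on day 1 with LIF for 21; the lowest lay on day 7 with NGAL for 28 and on day 7 with LIF for 16.

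Relative to fresh tissue, the mean log2 level of the 66 members was lower in culture with or without inducer. With LIF the group means of this difference on days 1, 2, 3, 4, 5 and 7 were -0.09, -0.36, -0.50, -0.39, -0.34 and -0.74. With NGAL they were -0.24, -0.54, -0.71, -0.67, -0.47 and -0.80, below the LIF value on each of the 6 days. With ANX they were -0.20, -0.35, -0.55, -0.30, -0.46 and -0.59. Explants without inducer had differences of -0.17 and -0.23 in the 2 arrays of day 1 and -0.60 and -0.57 on day 2. With LIF and with NGAL the 2 arrays of a group differed most on day 7, with differences from fresh tissue of -0.98 and -0.49 under LIF and -1.04 and -0.57 under NGAL. With ANX the day 7 arrays were at -0.65 and -0.54, closer together than those of day 4 at -0.41 and -0.20. On day 7 the lower array was replicate 1 with each inducer, which also had the lower dap ratio. That ratio was 1.19 with LIF, 1.32 with NGAL and 1.17 with ANX, against 2.30, 1.97 and 2.20 in replicate 2. The dap control is a spike-in and not RNA of the explants. For beta-actin the log2 3'/5' ratios were 1.25, 1.25 and 0.76 in replicate 1, against 1.58, 1.56 and 1.57 in replicate 2. The part of RNA quality in this spread was not tested.

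**Figure D1:**
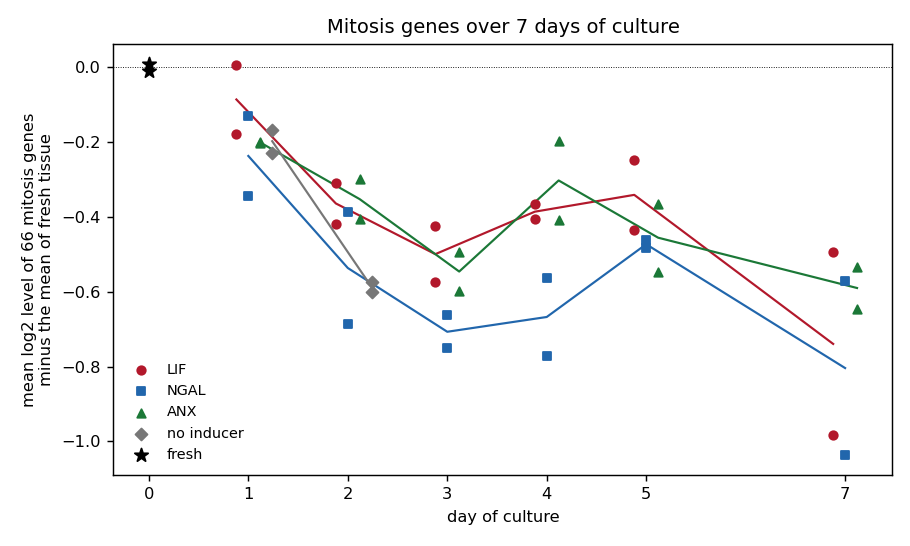
Mean log2 level of the 66 measured mitosis genes minus their mean in fresh tissue (y axis) by day of culture (x axis). Each symbol is 1 array, lines join group means, and symbols are shifted sideways for legibility. All groups lie below fresh tissue on average, NGAL lies below LIF on every day, and the 2 arrays of day 7 are far apart under LIF and NGAL.

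Without inducer, few members differed from fresh tissue on day 1 and most did on day 2. On day 1 only Cdca7 and Cdc25a were called among 66 members, both lower than in fresh tissue, where called means a Benjamini-Hochberg adjusted p under 0.05 in limma over all 11388 measured genes; 6.06% of these were called in the same comparison and 2.26% lower. By day 2, 40 of 66 members were called (60.6%), 39 lower and 1 higher, against 22.2% of all genes in either direction, 12.7% lower and 9.47% higher. The median difference was -0.63 for the members and -0.05 for all measured genes. The 26 uncalled members had differences from -0.76 to 0.30. Replicates did not overlap between the groups for 62 of the 66 members, among them all 40 called. With 2 arrays a group a call itself favours this, and the share of all genes is not given here.

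Among the drivers of mitotic entry, 4 of 7 were lower on day 2 without inducer than in fresh tissue. Ccnb1, cyclin B1, had log2 levels of 9.85 and 9.81 on day 2 without inducer, against 10.67 and 10.79 in fresh tissue, a difference of -0.90 (SE 0.18, adjusted p = 0.00138). Its partner Cdk1 had levels of 10.21 and 10.21 on day 2, against 10.81 and 10.90 in fresh tissue, a difference of -0.65 (SE 0.16, adjusted p = 0.00563). For both genes the 2 groups were well separated, and Ccnb1 intensity fell by 46.6%. Ccnf, an F-box cyclin that marks proteins for destruction, was lower by a difference of -0.88 (SE 0.15). Cdc25a, which activates Cdk2 and Cdk1, was called on both days, with differences from fresh tissue of -0.41 (SE 0.12) on day 1 and -0.66 (SE 0.12) on day 2. Ccna2, cyclin A2, had a difference of -0.76 (SE 0.31) on day 2 and did not pass (adjusted p = 0.0778), while Cdc25b had 0.26 (SE 0.24) and did not pass either (adjusted p = 0.459).

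All 8 mitotic kinases and passenger genes were lower on day 2 without inducer than in fresh tissue, with a median difference of -0.81. Cdca8 (borealin), which holds the passenger complex on centromeres, had log2 levels of 8.45 and 8.43 on day 2 without inducer, against 9.41 and 9.41 in fresh tissue, a difference of -0.97 (SE 0.16, adjusted p = 0.000173). Birc5, its partner in that complex, had levels of 8.38 and 8.32 on day 2, against 9.25 and 9.21 in fresh tissue, a difference of -0.88 (SE 0.16, adjusted p = 0.000492). The kinase of the complex, Aurkb, differed by -0.76 (SE 0.20) and its scaffold Incenp by -0.76 (SE 0.17), so that all 4 subunits were lower together. Aurka, the kinase of spindle poles, differed by -0.81 (SE 0.18). Plk1, which acts from mitotic entry to cytokinesis, had levels of 9.14 and 9.44 on day 2 without inducer, against 9.85 and 9.99 in fresh tissue, a difference of -0.63 (SE 0.16).

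Of 8 checkpoint and anaphase-promoting complex genes, 7 were lower on day 2 without inducer, with a median difference from fresh tissue of -0.83 over the 8. Bub1, a checkpoint kinase of the kinetochore, had log2 levels of 9.27 and 9.46 on day 2 without inducer, against 10.41 and 10.47 in fresh tissue, a difference of -1.07 (SE 0.21, adjusted p = 0.000903). Pttg1, the securin that restrains separase, had levels of 10.16 and 10.19 on day 2, against 11.13 and 11.20 in fresh tissue, a difference of -0.99 (SE 0.16, adjusted p = 0.000118). Both genes were lower in the 2 cultured arrays than in either fresh array. Mad2l1, the Mad2 protein that inhibits Cdc20, differed by -0.93 (SE 0.24), and Cdc20 itself by -0.82 (SE 0.25). Ttk, the Mps1 kinase, was the member of this group that did not pass, with a difference of -0.41 (SE 0.21) and adjusted p = 0.162. Its other measured probe set differed by -1.09.

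Of the kinesins and cytokinesis genes, 8 of 12 were lower on day 2 without inducer, with a median difference from fresh tissue of -0.59. Ect2, the exchange factor that starts the cleavage furrow through RhoA, had log2 levels of 9.58 and 9.60 on day 2 without inducer, against 10.74 and 10.57 in fresh tissue, a difference of -1.07 (SE 0.26, adjusted p = 0.00589). The bipolar spindle motors Kif15 and Kif11 differed by -0.84 (SE 0.19) and -0.81 (SE 0.20). Among 12 genes of chromosome structure and related function, 6 were lower. Cdca7, a partner of the chromatin remodeller HELLS rather than a spindle protein, moved most of all 66, with levels of 9.14 and 9.51 on day 2, against 11.14 and 11.31 in fresh tissue, a difference of -1.90 (SE 0.22, adjusted p = 2.89e-06). It was already lower on day 1 without inducer, with levels of 9.88 and 10.09 and a difference from fresh tissue of -1.24 (SE 0.22). Cdca4, a transcriptional cofactor of the E2F pathway, differed by -1.0 (SE 0.25) on day 2 without inducer. Top2a had levels of 10.28 and 10.26 on day 2, against 11.27 and 11.14 in fresh tissue, a difference of -0.94 (SE 0.21). Mki67 stayed outside this pattern, with levels of 10.51 and 10.47 on day 2 and 10.82 and 10.39 in fresh tissue, and the day 2 values inside the span of the fresh arrays (difference -0.11 (SE 0.34), adjusted p = 0.838).

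Of the centromere and kinetochore genes, 6 of 19 were lower and 1 was higher on day 2 without inducer, with a median difference from fresh tissue of -0.38. Nuf2, a subunit of the microtubule-binding Ndc80 complex, had log2 levels of 9.57 and 9.60 on day 2 without inducer, against 10.38 and 10.35 in fresh tissue, a difference of -0.78 (SE 0.15, adjusted p = 0.000734). Cenpt, which links the inner centromere to that complex, differed by -0.85 (SE 0.25). Cenpj, a centriole growth factor that shares only the symbol series with centromere proteins, differed by -0.88 (SE 0.27). Cenpb was the member that rose, with levels of 8.82 and 8.82 on day 2 without inducer, against 8.44 and 8.42 in fresh tissue, a difference of 0.40 (SE 0.12, adjusted p = 0.0253). Cenpe, the kinetochore motor, had a difference of 0.30 (SE 0.25) that did not pass (adjusted p = 0.403). The unmeasured Cenpa had log2 levels of 4.97 and 4.96 on day 2 and 4.92 and 4.93 in fresh tissue, below the threshold in both.

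The count on day 2 without inducer depended on single arrays. It was 22 and 21 without fresh replicates 1 and 2, and 23 without either array of day 2. Called in all 4 of these fits were 18 members, among them Bub1, Birc5, Ccnb1, Cdca7, Cdca8, Pttg1 and Top2a. On day 1 without inducer the count was 1 without fresh replicate 1, fresh replicate 2 or day 1 replicate 1. The step from day 1 to day 2 without inducer gave no called member in limma, with 35 members and 1112 of all genes at an unadjusted p under 0.05, 0.00878% of all genes called, and a median difference of -0.39 for the members (lowest adjusted p = 0.126). Markers of other cell types also differed between uninduced explants of day 2 and fresh tissue. The 5 measured erythroid markers of 6 listed averaged log2 7.66 and 7.92 on day 2 without inducer, against 9.33 and 9.63 in fresh tissue, with 4 called lower. For 6 measured endothelial markers of 7 the averages were 6.80 and 6.92 on day 2 and 7.86 and 7.98 in fresh tissue, with 4 called lower. For 6 skeletal muscle markers they were 8.61 and 8.89 on day 2 and 6.37 and 6.48 in fresh tissue, with 4 called higher. The part of these cells, of the 5S signal and of the beta-actin ratio in the differences of the mitosis genes was not tested.

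**Figure D2:**
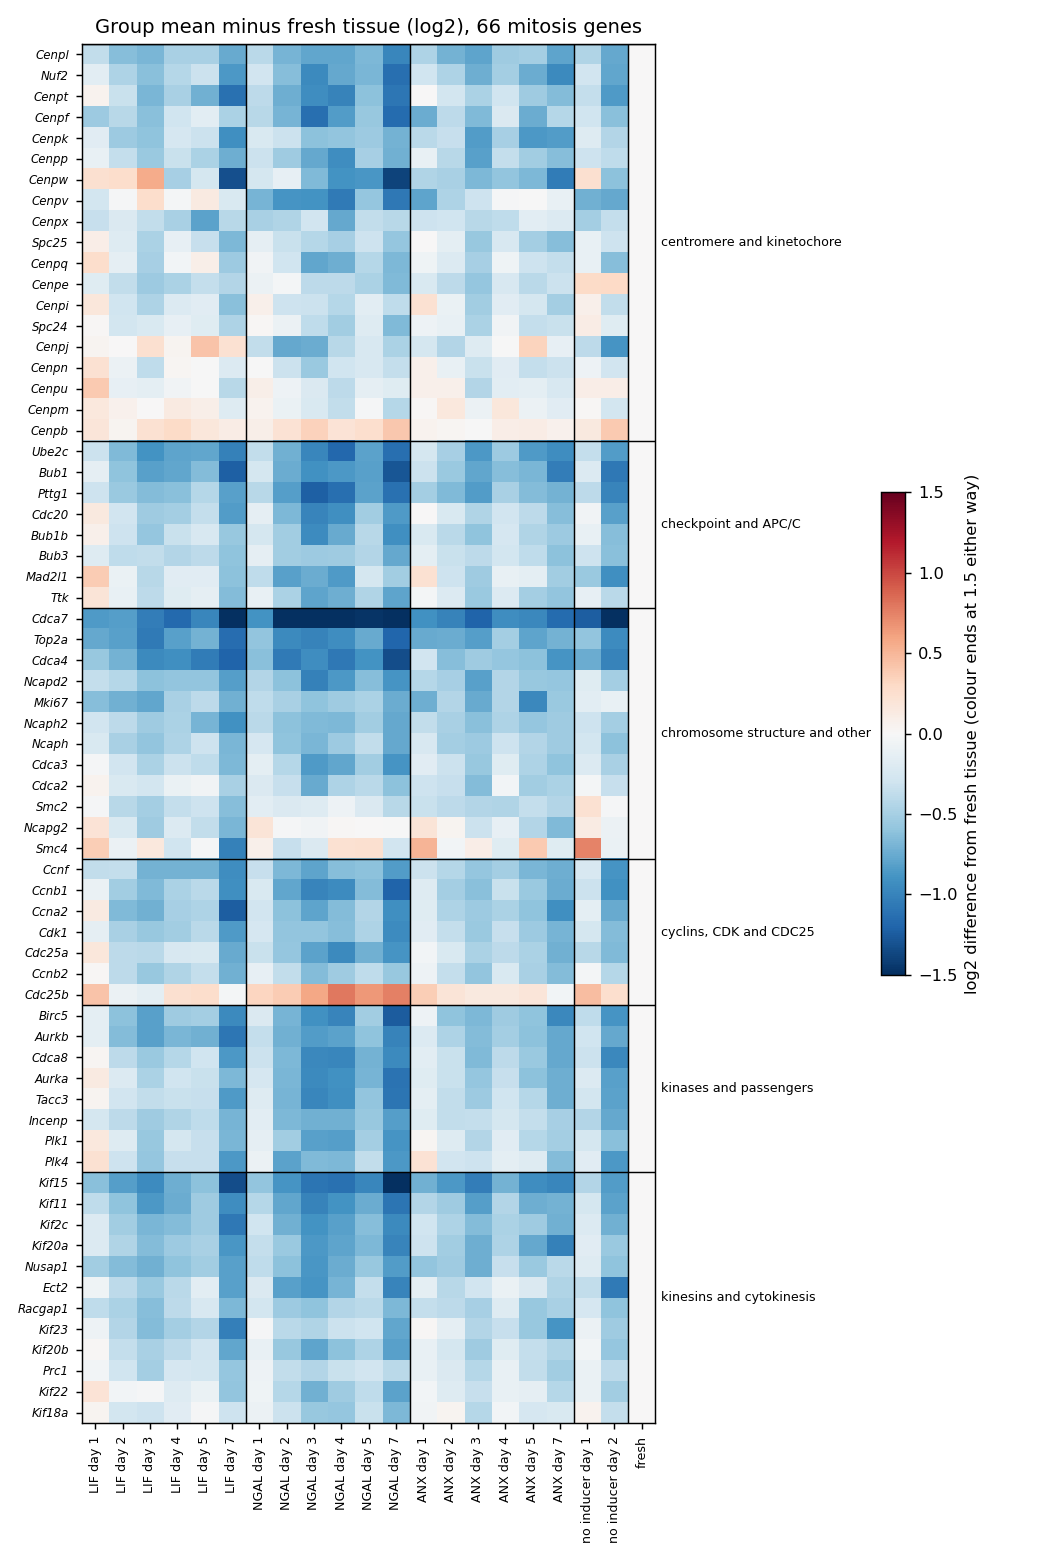
Group mean log2 level minus that of fresh tissue for the 66 measured mitosis genes (rows, grouped by role and sorted by their mean) in 21 groups (columns, with LIF, NGAL and ANX by day, then no inducer, then fresh tissue). Blue is lower and red higher than fresh tissue, with the colour scale ending at 1.5 either way. Most rows are blue from day 2 on, while Cenpb and Cdc25b are mostly red.

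The next question was whether an inducer kept these genes higher than culture alone over the first 2 days, the days with uninduced explants. With LIF, 11 members were higher and 1 was lower than without inducer over the mean of days 1 and 2 (18.2% of 66 called), against 24% of all genes called in the same comparison. The higher calls made up 16.7% of the members against 11.4% of all genes, and 12.6% of all genes were lower. The median difference was 0.15 for the members and 0.03 for all genes. All 12 called members had the same sign on both days. By role, 4 of 8 kinases and passenger genes were called higher, 3 of 19 centromere and kinetochore genes, and 1 each of the other 4 groups. These counts depend on the probe set chosen. Other measured probe sets of Kif11, Kif23 and Kif2c differed by 0.58, 0.60 and 0.47, against 0.04, 0.05 and 0.10 for the chosen ones. Those of Racgap1 and Nusap1 differed by 0.31 and -0.07, against -0.000 and -0.19.

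Mad2l1 differed most between LIF and uninduced explants. Its log2 levels with LIF were 8.36 and 8.68 on day 1 and 8.07 and 8.01 on day 2, against 7.66 and 7.51 on day 1 and 7.32 and 7.11 on day 2 without inducer, a difference of 0.88 (SE 0.17, adjusted p = 0.000638). All 4 LIF arrays lay above all 4 uninduced arrays. Its other 2 measured probe sets differed by 0.54 and 0.60. Cdca7 had levels with LIF of 10.38 and 10.36 on day 1 and 10.63 and 10.17 on day 2, against 9.88 and 10.09 and 9.14 and 9.51 without inducer on the same days, a difference of 0.73 (SE 0.15, adjusted p = 0.00167). Cdc25a had levels of 8.89 and 9.10 on day 1 and 8.49 and 8.40 on day 2 with LIF, against 8.41 and 8.43 and 8.02 and 8.33 without inducer, a difference of 0.42 (SE 0.08, adjusted p = 0.000884). On day 1 the LIF values of Cdc25a also lay above those of fresh tissue. Cenpj and Cenpv, a centromere protein also found at microtubules, were higher with LIF by 0.66 (SE 0.19) and 0.60 (SE 0.19). Aurka was higher by 0.47 (SE 0.13), Cdca8 by 0.46 (SE 0.11) and Plk1 by 0.42 (SE 0.11). Cenpe was the member that was lower, with levels of 8.16 and 8.57 on day 1 and 7.97 and 8.39 on day 2 with LIF, against 8.88 and 8.80 and 8.86 and 8.84 without inducer, a difference of -0.57 (SE 0.17, adjusted p = 0.0196).

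Several widely used proliferation genes did not pass against the uninduced explants. Ccnb1 had a difference of 0.30 (SE 0.13) under LIF (adjusted p = 0.097), Cdk1 of 0.14 (SE 0.11), Bub1 of 0.27 (SE 0.15), Top2a of -0.02 (SE 0.15) and Mki67 of -0.54 (SE 0.24). Without uninduced day 1 replicate 1 the LIF count was 7, without uninduced day 2 replicate 1 it was 6, and without LIF day 1 replicate 2 it was 7; Mad2l1, Cdca7, Cdc25a, Aurka and Cdca8 were called in all 8 fits that left out 1 array. Markers of other cells also differed, with 5 of 6 measured endothelial, 4 of 5 erythroid, 4 of 6 renal stroma, 2 of 5 macrophage and 1 of 6 skeletal muscle markers lower with LIF than without inducer. On day 2 muscle markers averaged log2 7.11 and 7.14 with LIF, against 8.61 and 8.89 without inducer. Stroma markers averaged 10.09 and 10.28 with LIF on that day, against 11.08 and 11.18 without inducer. Their part in the differences of the mitosis genes was not tested.

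With the ANX fraction, 5 members were higher and 1 was lower than without inducer over days 1 and 2, 9.09% of 66 called, against 20.3% of all genes (11.2% higher and 9.12% lower). Mad2l1 had log2 levels of 8.36 and 8.39 on day 1 and 7.75 and 7.91 on day 2 with ANX, against 7.66 and 7.51 and 7.32 and 7.11 without inducer, a difference of 0.70 (SE 0.17, adjusted p = 0.00475). Cdc25a had levels of 8.79 and 8.80 on day 1 and 8.52 and 8.70 on day 2 with ANX, against 8.41 and 8.43 and 8.02 and 8.33 without inducer, a difference of 0.40 (SE 0.08, adjusted p = 0.00161). All 4 ANX arrays lay above all 4 uninduced arrays for both genes. Cdca7 differed by 0.62 (SE 0.15), Cdca8 by 0.40 (SE 0.11) and Plk1 by 0.36 (SE 0.11), and Cenpe was lower with a difference of -0.61 (SE 0.17). The same uninduced arrays serve both comparisons, so these values are not independent of those under LIF. Leaving out replicate 1 of ANX day 1 or of ANX day 2 gave a count of 3 each, and Mad2l1, Cdca7 and Cdc25a were called in all 8 fits with 1 array left out. With ANX too, 4 of 6 measured endothelial, 4 of 5 erythroid, 3 of 6 stroma and 2 of 5 macrophage markers were lower than without inducer, and none of 6 muscle markers was called. On day 2 erythroid markers averaged log2 6.22 and 6.28 with ANX, against 7.66 and 7.92 without inducer, and muscle markers 6.94 and 7.08 with ANX, against 8.61 and 8.89 without inducer. The part of these cells in the ANX differences was not tested.

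With NGAL, limma called no member and no gene at all against the uninduced explants (0% of 11388), with 1 member and 799 genes at an unadjusted p under 0.05. The members' median difference was 0.02, and their differences ran from -0.46 to 0.35 with a median SE of 0.14. Mad2l1 had log2 levels of 7.42 and 8.09 on day 1 and 7.45 and 7.21 on day 2 with NGAL, which overlap those of uninduced explants. Setting inducers against each other on these days, LIF was higher than NGAL for 3 members (4.55%, against 5.17% of all genes called and 2.72% higher), namely Mad2l1 by 0.74 (SE 0.17), Aurka by 0.43 (SE 0.13) and Cdc25a by 0.34 (SE 0.08). None of these was called in every fit with 1 array left out: the count was 0 without LIF day 1 replicate 2, LIF day 2 replicate 1, NGAL day 1 replicate 1 or NGAL day 2 replicate 2, and 5 without NGAL day 2 replicate 1. ANX was higher than NGAL for Cdc25a alone, by 0.33 (SE 0.08) (1.52% of members, against 2.12% of all genes called and 1.36% higher). That count was 2 without NGAL day 1 replicate 2 and 0 without any 1 of the other 7 arrays.

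**Figure D3:**
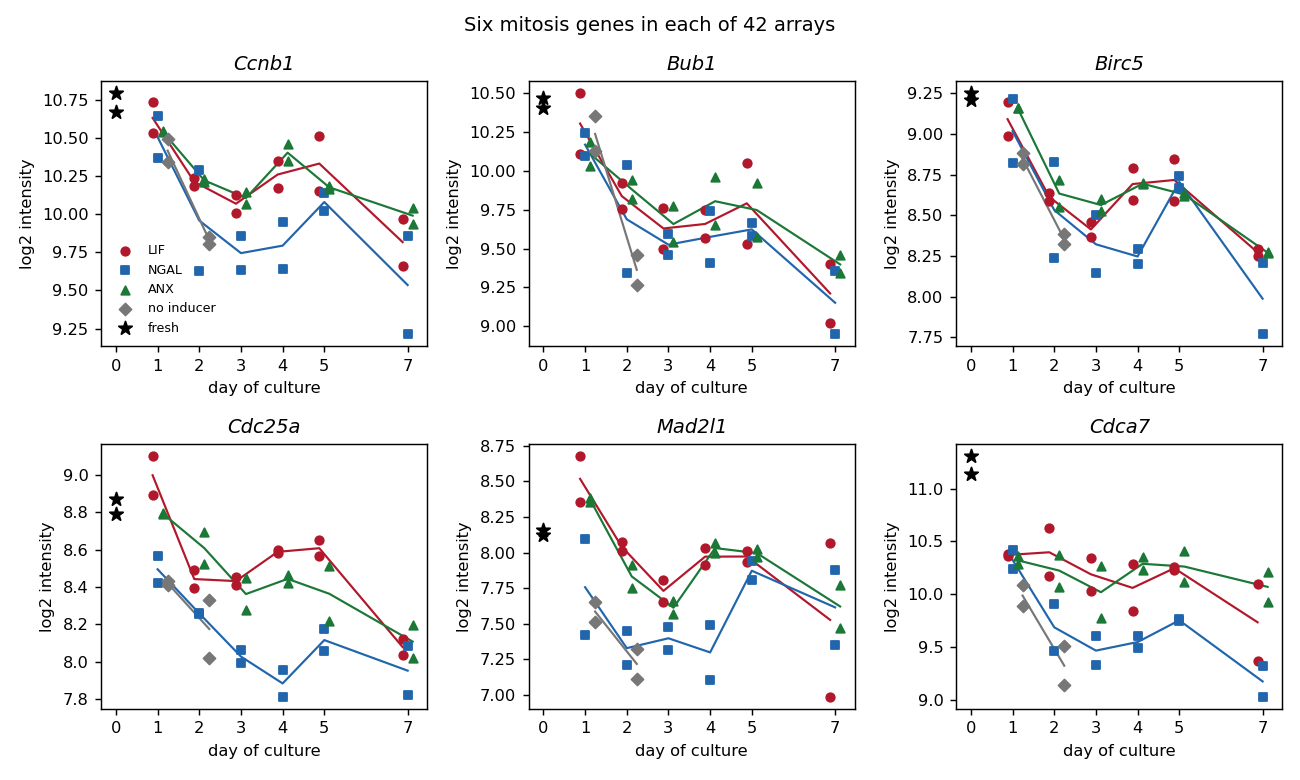
Log2 intensity (y axes, 1 scale per gene) of Ccnb1, Bub1, Birc5, Cdc25a, Mad2l1 and Cdca7 in each of 42 arrays by day of culture (x axes). Each symbol is 1 array and lines join group means. For Mad2l1 and Cdc25a the LIF and ANX arrays of days 1 and 2 lie above the uninduced ones of the same day, and all 6 genes are lower on day 7 than on day 1 in the group means of each inducer.

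Many members were lower on day 7 than on day 1 under every inducer. With LIF, 41 of 66 were lower on day 7 than on day 1 and none was higher (62.1% lower, against 10.9% of all genes called, 6.51% lower and 4.39% higher), with a median difference of -0.68 for the members and -0.04 for all genes. With NGAL 33 were lower (50%, against 15.5% of all genes called, 8.6% lower and 6.92% higher) and the median was -0.63. With ANX 20 were lower (30.3%, against 13.8% of all genes called, 7.43% lower and 6.4% higher) and the median was -0.41. Whether these counts differ between inducers was not tested. By role, the checkpoint genes lower on day 7 numbered 8 of 8 with LIF, 6 with NGAL and 4 with ANX, and the kinases and passenger genes 7 of 8 with LIF, 7 with NGAL and 6 with ANX.

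Cenpw, an inner kinetochore protein, had the largest called difference with LIF, with log2 levels of 8.07 and 8.60 on day 7, against 9.65 and 10.15 on day 1, a difference of -1.56 (SE 0.24, adjusted p = 0.000206). With NGAL its levels were 8.19 and 8.37 on day 7, against 9.24 and 9.54 on day 1, a difference of -1.12 (SE 0.24, adjusted p = 0.00257). The day 7 arrays lay below the day 1 arrays in both cases. Bub1 had levels with LIF of 9.02 and 9.40 on day 7, against 10.11 and 10.50 on day 1, a difference of -1.09 (SE 0.21, adjusted p = 0.00202). With NGAL Bub1 differed by -1.02 (SE 0.21) and with ANX by -0.71 (SE 0.21). Birc5 had levels of 8.25 and 8.29 on day 7 and 8.98 and 9.20 on day 1 with LIF, a difference of -0.82 (SE 0.16). Birc5 differed by -1.03 (SE 0.16) with NGAL and by -0.89 (SE 0.16) with ANX, and it was called in all 12 fits that left out 1 array of these 3 comparisons.

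Cyclins were lower as well. Ccnb1 had log2 levels of 9.21 and 9.86 on day 7 with NGAL, against 10.37 and 10.64 on day 1, a difference of -0.97 (SE 0.18, adjusted p = 0.00108). It differed by -0.81 (SE 0.18) with LIF and by -0.55 (SE 0.18) with ANX. Ccna2 showed how far the day 7 arrays under LIF lay apart, at 8.65 and 10.02, against 10.53 and 10.88 on day 1 with LIF (difference -1.37 (SE 0.31)). Cdc25a differed between day 7 and day 1 by -0.92 (SE 0.12) with LIF and by -0.69 (SE 0.12) with ANX. With LIF, Smc4, a condensin ATPase, differed by -1.39 (SE 0.40), Cenpt by -1.17 (SE 0.25) and Plk4, the kinase that licenses centriole copying, by -1.09 (SE 0.29). With NGAL, Cdca7 differed by -1.15 (SE 0.22) and Kif15 by -0.91 (SE 0.19). With ANX the largest called differences were those of Kif23, a midbody motor (-0.89 (SE 0.21)), Birc5, Plk4 (-0.87 (SE 0.29)), the condensin II subunit Ncapg2 (-0.86 (SE 0.19)), Mad2l1 (-0.75 (SE 0.24)) and Cenpi (-0.74 (SE 0.19)). Mki67 was called under none of the 3, with differences of -0.08 (SE 0.34) with LIF, -0.36 (SE 0.34) with NGAL and 0.18 (SE 0.34) with ANX.

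The counts from day 1 to day 7 rested on few arrays. With LIF the count was 9 without day 7 replicate 1, 10 without day 1 replicate 2 and 27 without day 1 replicate 1. With NGAL it was 5 without day 7 replicate 1 and 10 without day 1 replicate 2. With ANX it was 4 and 7 without day 1 replicates 1 and 2, and 5 and 11 without day 7 replicates 1 and 2. Called whichever array was left out were Birc5, Cdc25a, Cdca8, Cenpw, Plk1 and Tacc3 with LIF, Birc5, Bub3, Cdca7 and Nuf2 with NGAL, and Birc5, Cdc25a and Ncapg2 with ANX. Under LIF, another measured probe set of Tacc3 differed by 0.126 between day 7 and day 1, against -0.895 for the chosen one. The other probe set of Cenpw differed by -1.70 in that comparison. Fitting the dap ratio as a covariate gave counts of 46 with LIF, 45 with NGAL and 25 with ANX. Cell type markers differed over the same days. Of 6 measured endothelial markers, 4 with LIF, 5 with NGAL and 5 with ANX were lower on day 7 than on day 1, as were 2 of 5 erythroid markers with each inducer. Erythroid markers averaged log2 5.38 and 5.13 on day 7 with LIF, against 7.54 and 7.58 on day 1 with LIF. Muscle markers averaged 7.97 and 9.37 on day 7 with NGAL, against 6.98 and 6.87 on day 1 with NGAL, with 1 of 6 called higher under each inducer and 1 lower with LIF. Stroma markers called lower numbered 2 of 6 with LIF, 1 with NGAL and 2 with ANX. The part of these cells in the differences of the mitosis genes was not tested.

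Against fresh tissue the day 7 explants were lower for most members. With LIF 48 of 66 were lower and none was higher (72.7%, against 25.1% of all genes called, 13.8% lower and 11.3% higher), with a median difference of -0.75. With NGAL 50 were lower and 2 were higher (78.8% called, against 35.4% of all genes, 19.4% lower and 16% higher), with a median of -0.84. With ANX 38 were lower (57.6%, against 20.5% of all genes called, 10.1% lower and 10.4% higher), with a median of -0.61. Of the 12 kinesins and cytokinesis genes, 11 were lower with LIF, 11 with NGAL and 6 with ANX, and all 8 kinases and passenger genes were lower with LIF and with NGAL. The fresh arrays are shared by these 3 comparisons.

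Kif15, a motor that keeps spindle poles apart, had log2 levels of 8.43 and 9.11 on day 7 with LIF, 8.27 and 8.91 with NGAL and 9.18 and 9.07 with ANX, against 10.15 and 10.05 in fresh tissue. The differences from fresh tissue were -1.33 (SE 0.19, adjusted p = 2.08e-05) with LIF, -1.51 (SE 0.19, adjusted p = 3.07e-06) with NGAL and -0.98 (SE 0.19, adjusted p = 0.000723) with ANX. Every day 7 array of Kif15 lay below both fresh arrays. Top2a had levels of 9.63 and 10.49 with LIF, 9.71 and 10.33 with NGAL and 10.53 and 10.46 with ANX on day 7, against 11.27 and 11.14 in fresh tissue, and the differences were -1.14 (SE 0.21) with LIF, -1.19 (SE 0.21) with NGAL and -0.71 (SE 0.21) with ANX. Cdca7 differed from fresh tissue by -1.49 (SE 0.22) with LIF, -2.05 (SE 0.22) with NGAL and -1.16 (SE 0.22) with ANX. Cdc20 was lower with LIF (-0.84 (SE 0.25)) and NGAL (-0.85 (SE 0.25)) and did not pass with ANX (-0.64 (SE 0.25), adjusted p = 0.0749). The 2 members that rose with NGAL were Cdc25b, with levels of 7.98 and 7.58 on day 7 against 7.11 and 6.94 in fresh tissue (0.76 (SE 0.24, adjusted p = 0.0149)), and Cenpb (0.40 (SE 0.12)).

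Without LIF day 7 replicate 1 the LIF count against fresh tissue was 25, and without NGAL day 7 replicate 1 the NGAL count was 29. Leaving out fresh replicate 1 gave an ANX count of 23, fresh replicate 2 gave 21, and ANX day 7 replicate 1 gave 22. Members called in all 4 fits numbered 25 with LIF, 29 with NGAL and 16 with ANX, and Aurkb, Birc5, Bub1, Cdk1, Kif15 and Cdca7 were among them for each inducer. All 6 measured endothelial markers were lower on day 7 than in fresh tissue with each inducer, with averages of log2 5.91 and 5.91 with LIF, 6.06 and 5.79 with NGAL and 5.69 and 5.71 with ANX, against 7.86 and 7.98 in fresh tissue. Erythroid markers averaged 5.38 and 5.13 with LIF, 5.19 and 5.20 with NGAL and 5.14 and 5.24 with ANX, against 9.33 and 9.63 in fresh tissue. On day 7, 4 of 5 measured erythroid markers lay below the signal threshold with LIF, 5 with NGAL and 4 with ANX. The part of endothelial and blood cells in the differences of the mitosis genes was not tested.

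The time courses were not a steady decline, a pattern seen in the data and given here as counts without a test. From day 1 to day 2, group means were lower on the later day for 60 of 66 members with LIF, 61 with NGAL and 57 with ANX. Of all measured genes, 42.3% with LIF, 43.9% with NGAL and 48.1% with ANX were higher on day 2. On day 3 the group means were lower than on day 2 for 58 members with LIF, 56 with NGAL and 60 with ANX. Meanwhile 54.1% of all genes with LIF, 50.1% with NGAL and 44.4% with ANX were above day 2. On day 4, 57 members with LIF, 41 with NGAL and 63 with ANX were above their day 3 mean, while the share of all measured genes above day 3 was 51.3% with LIF, 48.9% with NGAL and 58.4% with ANX. On day 5, 56 members with LIF, 61 with NGAL and 51 with ANX were above day 3, while 45.1% of all genes with LIF, 51.1% with NGAL and 59.1% with ANX were. Of the 66 members, 30 with LIF, 43 with NGAL and 13 with ANX were above day 3 without overlap of the 2 days' values. The share of all genes was 14.8% with LIF, 17.3% with NGAL and 21.7% with ANX. With ANX the members' share lay below that of all genes. On day 5, 57 members with ANX were lower than on day 4, as were 19 with LIF and 4 with NGAL. Of all genes, 49.6% with ANX, 45.1% with LIF and 53.4% with NGAL were above day 4. On day 7 the group means were lower than on day 5 for 65 members with LIF, 64 with NGAL and 53 with ANX. By then 50.5% of all genes with LIF, 46.2% with NGAL and 42.6% with ANX were above day 5.

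Single genes show the turn. Birc5 had log2 levels with NGAL of 8.14 and 8.50 on day 3, 8.67 and 8.74 on day 5 and 7.77 and 8.21 on day 7, so that both day 5 arrays lay above the others. Ccnb1 with NGAL had levels of 9.63 and 9.86 on day 3, 10.02 and 10.14 on day 5 and 9.21 and 9.86 on day 7, with the same order. With LIF, Ccnb1 had 10.01 and 10.13 on day 3, 10.35 and 10.17 on day 4, 10.15 and 10.52 on day 5 and 9.66 and 9.97 on day 7. Mad2l1 with ANX had 7.57 and 7.66 on day 3, 8.07 and 8.0 on day 4 and 7.47 and 7.77 on day 7, and the day 4 arrays lay above both other days. Bub1 with LIF had 9.50 and 9.76 on day 3 and 9.53 and 10.05 on day 5, where the arrays of the 2 days overlap.

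**Figure D4:**
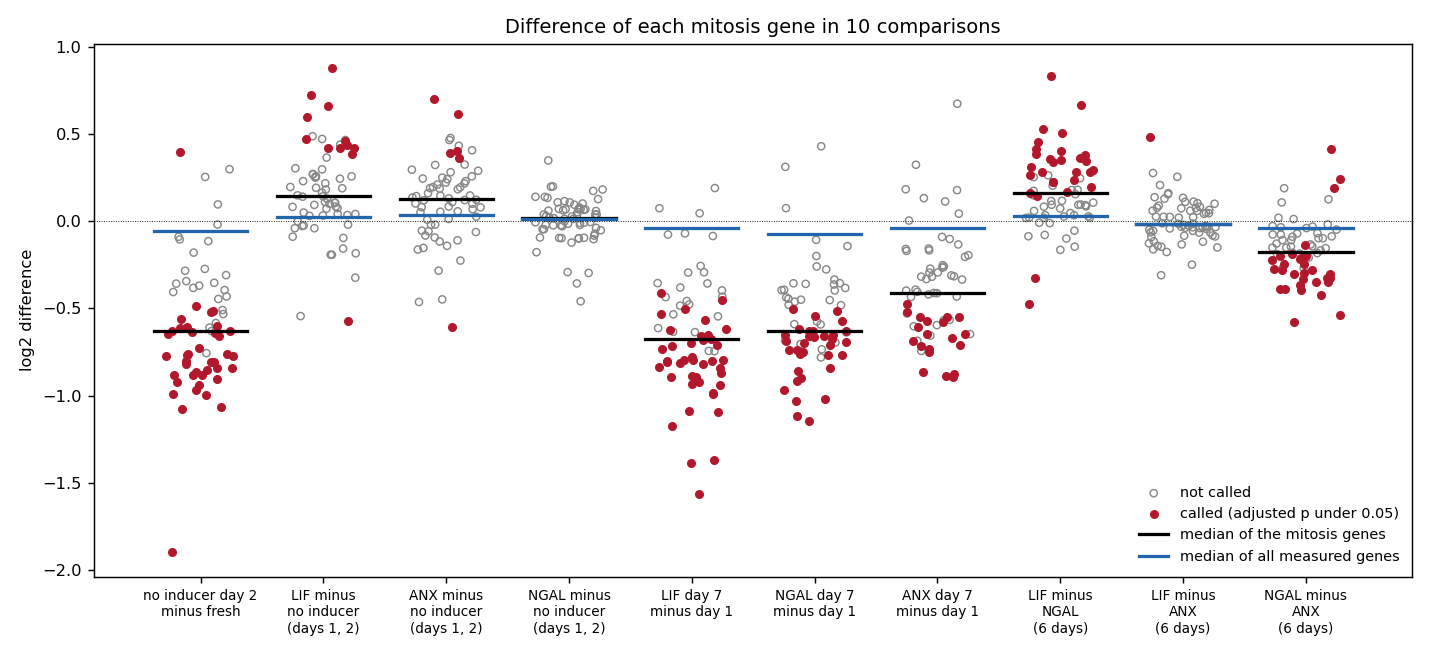
Log2 difference (y axis) of each of the 66 measured mitosis genes in 10 comparisons (x axis). Filled points passed an adjusted p under 0.05, open points did not, and horizontal bars are the medians of the mitosis genes (black) and of all measured genes (blue). The black bar lies below the blue one on day 2 without inducer against fresh tissue and on day 7 against day 1 of each inducer, and on either side of it by less than 0.2 in the comparisons between inducers.

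Over all 6 days, NGAL explants had lower levels of many members than LIF or ANX explants, while 1 member was called between LIF and ANX. LIF was higher than NGAL for 27 members and lower for 2 (43.9% called, against 41.7% of all genes). Of the members 40.9% were higher with LIF, against 21.5% of all genes, while 20.3% of all genes were lower. The median difference was 0.16 for the members and 0.03 for all genes. NGAL was lower than ANX for 27 members and higher for 3 (45.5% called, against 37.5% of all genes; 40.9% lower, against 22.2%, and 4.55% higher, against 15.3%), with a median of -0.17 for the members and -0.04 for all genes. The NGAL arrays enter both comparisons. Of the called members, 24 of 29 for LIF against NGAL and 16 of 30 for NGAL against ANX had the same sign on every day. LIF against ANX gave 1 called member (1.52%, against 5.01% of all genes called and 1.63% higher), with differences between -0.31 and 0.48.

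Cdc25a had the smallest adjusted p between LIF and NGAL. Its log2 levels over 12 arrays ran from 8.04 to 9.10 with LIF, against 7.81 to 8.57 with NGAL, a difference of 0.40 (SE 0.05, adjusted p = 1.29e-06). By day the difference in group means lay between 0.13 and 0.71 and was positive on 6 of 6 days. Cenpv ran from 8.50 to 9.38 with LIF, against 7.28 to 8.48 with NGAL, and differed by 0.84 (SE 0.11, adjusted p = 4.77e-06), with 0.41 to 1.15 by day. Every LIF array of Cenpv lay above every NGAL array. Aurka differed by 0.46 (SE 0.07), positive on 6 of 6 days. Cenpj was higher with LIF by 0.67 (SE 0.11), Cenpw by 0.53 (SE 0.10) and Cdca7 by 0.51 (SE 0.09). Of the anchors, Ccnb1 (0.28 (SE 0.08)), Plk1 (0.30 (SE 0.07)), Cdc20 (0.29 (SE 0.10)) and Birc5 (0.16 (SE 0.07)) were higher with LIF. Cdk1 (0.08 (SE 0.06)), Bub1 (0.12 (SE 0.08)), Aurkb (0.04 (SE 0.08)), Top2a (0.02 (SE 0.09)) and Mki67 (-0.09 (SE 0.14)) did not pass. Cdc25b was lower with LIF by a difference of -0.47 (SE 0.10), and Ncapg2 by -0.33 (SE 0.08). By role, 10 of 19 centromere and kinetochore genes, 5 of 8 checkpoint genes and 5 of 8 kinases and passenger genes were higher with LIF, against 2 of 12 kinesins and cytokinesis genes.

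Against ANX, NGAL was lower for 7 of 8 kinases and passenger genes and 6 of 8 checkpoint genes. Cdc20 ran from 9.02 to 10.35 in 12 NGAL arrays, against 9.54 to 10.29 in 12 ANX arrays, a difference of -0.35 (SE 0.10, adjusted p = 0.0103) that was negative on 6 of 6 days. The ranges overlap, and the arrays of the 2 groups also overlap within days 1 and 7. Cenpt differed by -0.42 (SE 0.10), Cdca4 by -0.40 (SE 0.10), Ect2 by -0.39 (SE 0.11), Cenpj by -0.39 (SE 0.11) and Mad2l1 by -0.37 (SE 0.10). Ccnb1 differed by -0.30 (SE 0.08), Plk1 by -0.33 (SE 0.07) and Birc5 by -0.19 (SE 0.07). The other measured anchors did not pass, namely Aurkb (-0.185 (SE 0.08)), Top2a (-0.18 (SE 0.09)), Cdk1 (-0.13 (SE 0.06)), Bub1 (-0.14 (SE 0.08)) and Mki67 (0.11 (SE 0.14)). The members higher with NGAL than with ANX were Cdc25b (0.42 (SE 0.10)), Ncapg2 (0.24 (SE 0.08)) and Cenpb (0.19 (SE 0.05)). Cenpw, named for its call after its values were seen, ran from 8.07 to 10.29 with LIF and from 8.32 to 9.27 with ANX. By day its difference in group means was positive on 5 of 6 days, at 1.22 on day 3, 0.09 on day 4 and -0.27 on day 7. It was the 1 member called between LIF and ANX, with a difference of 0.48 (SE 0.10, adjusted p = 0.0039). That count was 2 when LIF day 1 replicate 1 was left out, and likewise for replicate 2 of ANX day 2 or day 4.

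With 1 array left out the count of called members ran from 22 to 36 for LIF against NGAL and from 21 to 40 for NGAL against ANX, and 22 and 21 members were called in all 24 fits of each comparison. On days 1 to 5 alone, a choice made after the day 7 arrays were seen to lie apart, the counts were 26 and 21. Cell type markers also differed in these comparisons. NGAL explants had higher levels than ANX explants of all 6 skeletal muscle markers, among them Myog, a myogenic factor (2.46 (SE 0.36)), and lower levels of 6 of 7 mesenchyme markers, among them Wt1 (-0.67 (SE 0.16)). LIF explants were higher than NGAL explants for 4 of 7 mesenchyme markers and lower for 4 of 6 muscle markers, with Myog at -2.22 (SE 0.36). Of 6 measured renal stroma markers, 5 were lower with LIF than with NGAL, and 5 were higher with NGAL than with ANX. Of 5 measured macrophage markers, 3 were lower with LIF than with NGAL and 3 were higher with NGAL than with ANX. The part of tissue makeup in the mitosis gene differences was not tested. The moderated F-test of inducer by day called no member (0.0351% of all genes), with 1 member and 660 genes at an unadjusted p under 0.05 and a lowest adjusted p of 0.532 among members, so that a different time course by inducer was not detectable with 2 arrays a group.

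Genes of the same pathway outside the symbol rule were counted as well. Of 40 further mitotic genes, 32 had a probe set and 31 were measured. On day 2 without inducer 18 of 31 were lower than in fresh tissue and none was higher, against 12.7% of all genes lower and 9.47% higher, with a median difference of -0.64. On day 7 against fresh tissue 24 were lower with LIF, 28 with NGAL and 19 with ANX, against 13.8% of all genes lower with LIF, 19.4% with NGAL and 10.1% with ANX. Ska1, a microtubule-binding kinetochore protein, had log2 levels of 7.54 and 7.61 on day 2 without inducer, against 9.16 and 9.23 in fresh tissue, a difference of -1.62 (SE 0.24). Cks2, a subunit of cyclin-dependent kinases, had 10.35 and 10.33 on day 2 and 11.30 and 11.27 in fresh tissue, a difference of -0.94 (SE 0.16). Both were higher with LIF than without inducer over days 1 and 2, by 0.71 (SE 0.17) and 0.44 (SE 0.11). Of 24 anaphase-promoting complex and cohesin genes, 6 were lower and 1 was higher on day 2 without inducer than in fresh tissue, where 12.7% of all genes were lower and 9.47% higher. Fbxo5 (Emi1), an inhibitor of the complex, was lower by a difference of -0.96 (SE 0.14), and the subunit Anapc11 was higher by 0.50 (SE 0.15).

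Regulators upstream of these genes were counted in the same way. Of 23 measured transcription factors of the cell cycle, 10 were lower and 1 was higher on day 2 without inducer than in fresh tissue, against 12.7% of all genes lower and 9.47% higher. Foxm1, an activator of late cell cycle genes, had log2 levels of 7.75 and 7.67 on day 2, against 8.46 and 8.49 in fresh tissue, a difference of -0.77 (SE 0.14). Nfya and Nfyb, subunits of the CCAAT-binding factor NF-Y, differed by -0.91 (SE 0.20) and -0.69 (SE 0.14). Mybl2, the B-Myb partner of MuvB, differed from fresh tissue by -0.93 (SE 0.22) on day 2 without inducer and was higher by 0.61 (SE 0.15) with LIF than without inducer. Mycn was higher than without inducer by 1.78 (SE 0.35) with LIF and 1.42 (SE 0.35) with ANX over days 1 and 2. Of 21 measured G1 cyclins, kinases and inhibitors, 7 were lower and 1 was higher on day 2 without inducer than in fresh tissue. Ccne1 (cyclin E1) differed from fresh tissue by -1.16 (SE 0.17) on day 2 without inducer and was higher with LIF than without inducer by 0.76 (SE 0.12). The inhibitor Cdkn1a (p21) was higher with ANX than without inducer by 1.42 (SE 0.27). Cdkn2a, another inhibitor, differed by 1.21 (SE 0.19), with means of 5.11 with ANX and 3.90 without inducer that both lay below the signal threshold, and Cdkn1c (p57) was lower, with a difference of -1.07 (SE 0.26). Ccnd1 (cyclin D1), which responds to mitogens, was higher on day 7 than on day 1 with LIF by 3.50 (SE 0.81). Against fresh tissue its day 7 mean with LIF was 10.26, against 9.43, a difference of 0.83 (SE 0.81) that did not pass (adjusted p = 0.4975).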

How the data were processed

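The deposited values were probe set intensity values on a linear scale (7.6 to 17972) from Affymetrix Rat Genome 230 2.0 arrays, 1 array per sample, made by the authors with robust multichip analysis, per the series' design text and the submitters' processing notes, which give no version. That method sets the arrays to one common distribution, so a change shared by most genes cannot be seen. Values were turned to log2 here.

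The platform's probe table named 1 gene for 20832 of 31099 probe sets, several for 436 and none for 9831. Where a gene had several, the one with the highest mean stood for it. Of the members, 21 had more than 1 probe set, and another one was measured for 18. These 22 other probe sets had the sign of the chosen one for 17 to 22 in each comparison. Cdc20 was read from a probe set that may also bind related transcripts, and 5 probe sets of several genes that name a member were not used. Genes were kept where the highest group mean lay above the 40th percentile of all values, which left 11388 of 14218. For arrays this signal threshold stands in for depth, and 2 arrays a group limit the precision.

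A mean per group was fitted to all 42 arrays with limma 3.58.1 in R 4.3.3 (21 residual degrees of freedom, eBayes with a variance trend), and p-values were adjusted by Benjamini-Hochberg over all measured genes in each of 18 comparisons. The fit was tested on simulated data. Differences are on the log2 scale, first-named group minus the other. Tables and figures were made with Python 3.11.15, numpy 2.4.6, pandas 2.3.3 and matplotlib 3.10.9. Promoters came from RefSeq, assembly GRCr8.

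The members, lists and markers were chosen with earlier results of these data known. The text names 10 preset members (Mki67, Top2a, Ccnb1, Cdk1, Bub1, Aurkb, Plk1, Birc5, Cenpa and Cdc20), up to 6 called members with the largest change per comparison whose replicates did not overlap or whose sign held on every day, called members against the majority, and examples by role or list with the smallest adjusted p. Others, among them the genes used to show the time course from day to day, were named after their values were seen. Replicate numbers were not taken as pairs, because same-numbered arrays of 210 pairs of groups had correlations of their deviations between -0.646 and 0.742 (median 0.0652), with 88 over 0.1. Alternatives were no filter, a filter at the 60th percentile, averaging all probe sets of a gene, quantile normalization again, no variance trend, the dap ratio as a covariate, the replicate number as a block, and leaving out each array.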

Additional observations from a re-analysis of the deposited data

How the results depend on the processing

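Counts are of called members out of 66. Quantile normalization again moved the count from 2 to 4 on day 1 without inducer against fresh tissue, from 6 to 10 for ANX against no inducer and from 3 to 5 for LIF against NGAL on days 1 and 2. For ANX against NGAL on days 1 and 2 the count of 1 became 0 with no filter and 0 after averaging all probe sets of a gene. With the replicate block it was 2, and it was 5 for LIF against NGAL on these days; the block moved no other count by more than 1.5 times, and the numbers are not known to pair the arrays. The cause of these moves was not tested. With 1 array left out, counts ranged from 1 to 2 on day 1 and from 21 to 23 on day 2 without inducer against fresh tissue. Over days 1 and 2 they ranged from 6 to 12 for LIF against no inducer, 3 to 8 for ANX against no inducer, 0 to 5 for LIF against NGAL and 0 to 2 for ANX against NGAL. From day 1 to day 7 they ranged from 9 to 48 with LIF, 5 to 49 with NGAL and 4 to 11 with ANX. On day 7 against fresh tissue they ranged from 25 to 54 with LIF, 29 to 58 with NGAL and 21 to 26 with ANX. Over 6 days they ranged from 22 to 36 for LIF against NGAL, 1 to 2 for LIF against ANX and 21 to 40 for NGAL against ANX. They stayed at 0 for day 2 against day 1 without inducer, NGAL against no inducer and inducer by day. A fit with 1 array left out takes the spread of the lone array from the other groups. No called difference of a member turned its direction under any of these alternatives. With 1 array left out 665 calls of single members were lost and 2047 were kept, while the dap covariate lost 11 of 356 calls and the replicate block none. Probe sets near the signal threshold, Cenpa and Cdca5 among them, limit what can be said of low genes.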
